A study of Zea mays with 4 samples.

Results

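Glutathione transferases were followed in the ear internode of maize, the stem segment that bears the ear, at early silking and at tassel emergence. The members were all probe sets whose gene carried, in the platform annotation or in RefSeq (assembly Zm-B73-REFERENCE-NAM-5.0), the name GST plus a number, or the name bz2. This gave 35 probe sets for 31 genes, of 17621 probe sets on the array without controls, and no probe set matched bz2. The rule for the members used names alone and no measured value, but it was set with earlier results of these data known. The early silking group held 2 arrays, made from 340 and 400 ng of RNA, and the tassel emergence group held 2 arrays, made from 290 and 440 ng. All 4 came from the inbred line F271, the parent with unfavourable alleles in a cross with F288 mapped for lignin and wall degradability. The plants stood untreated in an irrigated field in a hot and dry summer. Nothing in the labels says that replicates came from separate plants, so each p-value covers only the spread among these arrays, and that spread may be technical.

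Glutathione transferases join the tripeptide glutathione to reactive compounds, and the conjugates are carried into the vacuole by transporters of the MRP type. Plants hold large families of them, most in the phi and tau classes. In maize they are best known for inactivating herbicides and for induction by safeners, compounds that protect the crop from herbicides. The bz2 protein belongs to this family and acts late in the anthocyanin pathway, before pigment enters the vacuole. Some members are also peroxidases that use glutathione, so the enzymes that make, recycle and use glutathione are described after the family.

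Signals are log2 probe set values, on which a step of 1 is a doubling. A gene was tested when its probe set was above a log2 value of 4 on 2 or more of the 4 arrays, of either stage. Of the 31 genes 15 passed (48.4%), beside 800 of 1108 genes that the annotation names (72.2%) and 61.2% of all probe sets. Values across the 10782 tested probe sets had medians of 8.68 and 8.63 on the silking arrays and of 8.65 and 8.67 on the tassel emergence arrays. Tassel emergence replicate 1 stood apart in its control transcripts. The signal of their 3′ ends exceeded that of their 5′ ends by a mean of 1.45 and 1.95 at silking and of 4.05 (replicate 1) and 2.34 (replicate 2) at tassel emergence. This gap depends on RNA integrity and on amplification. A fit with the gap as a covariate is given in the last section, and the part of the gap in the results was not tested otherwise. Of the stem wall markers 7 of 7 were above the filter, while 4 of 4 anther and pollen markers were below a log2 value of 4 on every array. Leaf genes were present as well (9 of 9), with log2 summed signals of 16.15 and 15.66 at silking and of 15.30 and 15.87 at tassel emergence. Of 11 kernel markers 3 passed, and the root markers matched no annotated probe set. In bulk RNA, fewer cells of a type and less RNA per cell cannot be told apart.

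No member passed an adjusted p of 0.05 between the stages, nor did any of the 10782 probe sets (0%; limma with Benjamini-Hochberg adjustment, smallest adjusted p = 0.0864). At an unadjusted p under 0.05 there were 4 of the 15 genes, GST39, gst17 and gst18 higher at silking and gst6 lower, beside 24.8% of all tested probe sets (12.7% higher and 12.1% lower). Early silking was higher than tassel emergence in 7 members (background 57.4%) and lower in 8 (background 42.6%), with a median log2 change of -0.06, against 0.10 over all tested probe sets. The family thus had no common direction. Stages did not overlap in 6 members (40%), below the 59.7% of all tested probe sets. These were 5 higher genes (background 34.9%) and 1 lower gene (background 24.9%).

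**Figure D1:**
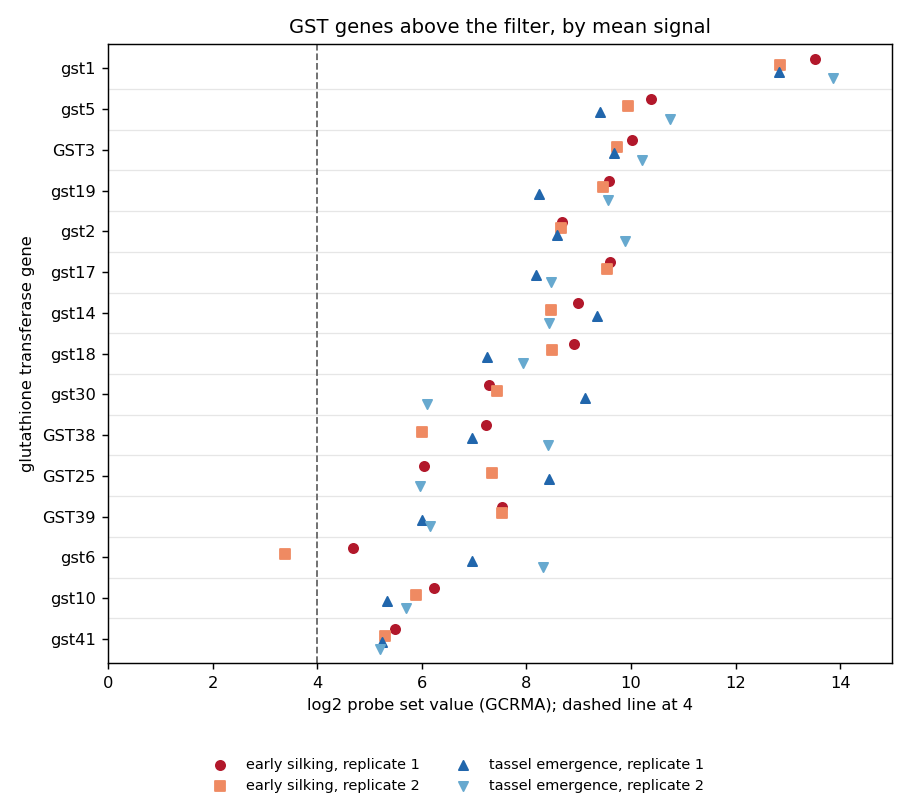
Log2 probe set values (x axis) of the 15 glutathione transferase genes that passed the filter, ordered by mean signal, with a point for each early silking and each tassel emergence array. The dashed line marks the log2 value of 4 used in the filter, and gst6 is the one gene shown with an array below it.

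By signal, gst1 came first on each of the 4 arrays. It is the gene of GST I, long known as a main herbicide-detoxifying transferase of maize seedlings. Its values were 13.51 and 12.85 at early silking and 12.82 and 13.86 at tassel emergence. The stages overlapped, since both silking values lay between the 2 tassel emergence values. Its log2 change was -0.16 (SE 0.47; adjusted p = 0.857 by limma). Signals of different probe sets also depend on how well the probes bind, so this is an order of signal and not of transcript number.

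Next in order of signal were gst5 with a mean of 10.12 over the 4 arrays and GST3 with 9.91, a gap smaller than the spread between replicates. For gst5, silking arrays read 10.38 and 9.93 and tassel emergence arrays 9.41 and 10.74. GST3, which the RefSeq table also lists under the name gst4, had 10.01 and 9.73 at silking and 9.67 and 10.20 at tassel emergence. Both genes overlapped between the stages, with both silking values inside the tassel emergence range. Their log2 changes were 0.08 and -0.06.

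Then came gst19, gst2, gst17 and gst14, with means of 9.21, 8.95, 8.95 and 8.81 that differ by less than the replicate spread of most of them. gst2 also carries the names GST4 and GSTIV, the safener-induced enzyme of maize. Its signals were 8.69 and 8.65 at silking and 8.59 and 9.88 at tassel emergence, so 1 tassel emergence array was high and the other 3 arrays were alike. The log2 change of gst2 was -0.56 (SE 0.49, limma adjusted p = 0.514). For gst19 the odd array was low, with 9.58 and 9.46 at silking and 8.24 and 9.55 at tassel emergence. In gst14 the values were 8.99 and 8.47 at silking and 9.35 and 8.43 at tassel emergence, again with silking in between.

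Among members higher at silking, GST39 and gst17 had the smallest p, though neither passed the threshold. GST39 (LOC541848) had 7.52 on both silking arrays and 5.99 and 6.16 on the tassel emergence arrays. All silking values were thus above all tassel emergence values, and the arrays of a stage were close together. The difference was 2.73-fold, a log2 change of 1.45 (SE 0.18; adjusted p = 0.0864 by limma). The probe set is of a type that can bind several transcripts of a gene, as are those of gst1 and gst5.

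gst17 (LOC542543) had 9.60 and 9.54 at silking and 8.17 and 8.47 at tassel emergence. Both silking arrays were above both tassel emergence arrays by more than the replicate spread. The log2 change was 1.25 (SE 0.20; adjusted p = 0.0964 by limma), or 2.38-fold. gst18 had 8.91 and 8.49 at silking and 7.24 and 7.94 at tassel emergence, a log2 change of 1.11 (SE 0.34; adjusted p = 0.166 by limma). Its stages were also separate, by less than the distance between the 2 tassel emergence arrays. GST39 and gst17 were the 2 members under an adjusted p of 0.1, where 4.27% of all tested probe sets fell.

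Separate but small differences were seen in gst10 and gst41, members with low signal. gst10 had 6.22 and 5.89 at silking and 5.33 and 5.70 at tassel emergence, a log2 change of 0.54. For gst41 the arrays read 5.49 and 5.30 at silking and 5.23 and 5.21 at tassel emergence, a log2 change of 0.18. The difference in gst41 was no larger than its SE of 0.18 in the fit. In both genes the stages were separate by less than the distance between the silking arrays.

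The largest change of any member was that of gst6 (LOC541991), which was lower at silking. It had 4.68 and 3.38 at silking and 6.96 and 8.32 at tassel emergence. Both silking arrays were below both tassel emergence arrays, and 1 silking array was under the log2 value of 4, where signal is close to background. The log2 change was -3.61 (SE 0.69; adjusted p = 0.109 by limma). The replicates differed by 1.30 at silking and by 1.36 at tassel emergence, so its size is uncertain while the separation of the stages was wider than either difference.

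**Figure D2:**
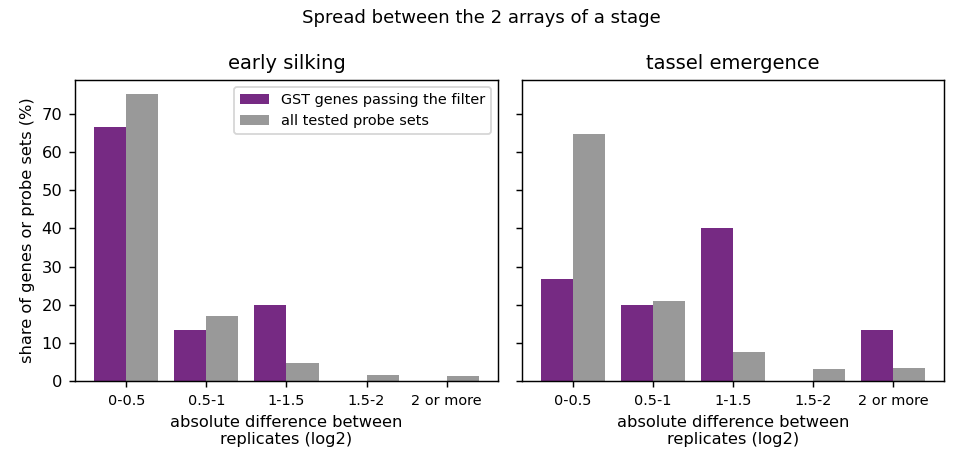
Share of genes or probe sets (y axis, percent) by the absolute log2 difference between the 2 arrays of a stage (x axis), for early silking and for tassel emergence. Bars compare the 15 glutathione transferase genes with the 10782 tested probe sets. At tassel emergence 40% of the family lies between 1 and 1.5, beside 7.59% of all tested probe sets.

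Replicate spread was wide in this family at tassel emergence. The 2 tassel emergence arrays differed by more than 1 on the log2 scale in 8 of 15 members (53.3%), beside 14.2% of all tested probe sets. At silking such a difference was seen in 3 of 15 (20%), beside 7.61% of all. Median absolute differences between replicates were 0.34 at silking and 1.04 at tassel emergence over the family, and 0.26 and 0.33 over all tested probe sets. Replicate 1 was the lower tassel emergence array in 11 of 15 members (73.3%), beside 52.9% of all tested probe sets, and it is the array with the wide 3′ to 5′ gap. At silking the gap was 1.45 for replicate 1 and 1.95 for replicate 2. There replicate 1 was the higher array in 13 of 15 members (86.7%), beside 57% of all. The part of the gap in these differences was not tested.

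Among the 4 members with the higher value on that array were gst30 and GST25. gst30 had 7.28 and 7.43 at silking and 9.12 and 6.11 at tassel emergence. GST25 had 6.04 and 7.34 at silking and 8.43 and 5.96 at tassel emergence. Their tassel emergence arrays differed by 3.01 and 2.48, more than in any other member that passed the filter, and the log2 changes of -0.25 and -0.50 lay within 1 SE. GST38 had 7.23 and 5.999 at silking and 6.96 and 8.42 at tassel emergence, a log2 change of -1.07 (SE 0.70; adjusted p = 0.396 by limma). In GST38 the stages overlapped through 1 array of each, and the change was -0.34 against tassel emergence replicate 1 alone and -1.80 against replicate 2 alone.

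Both silking values lay between the 2 tassel emergence values in 7 of 15 members (46.7%), beside 11% of all tested probe sets. For 8 of the 15 the direction of the stage change therefore depended on which tassel emergence array was used (53.3%, beside 23.6% of all). These 8 were gst1, gst5, GST3, gst19, gst2, gst14, gst30 and GST25. Against replicate 1 alone silking was higher in 10 members, and against replicate 2 alone in 8. GST39, gst17, gst18, gst10, gst41, gst6 and GST38 kept their direction against either array. For GST39 the change was 1.53 against replicate 1 and 1.37 against replicate 2, for gst17 1.40 and 1.10, and for gst6 -2.93 and -4.29.

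**Figure D3:**
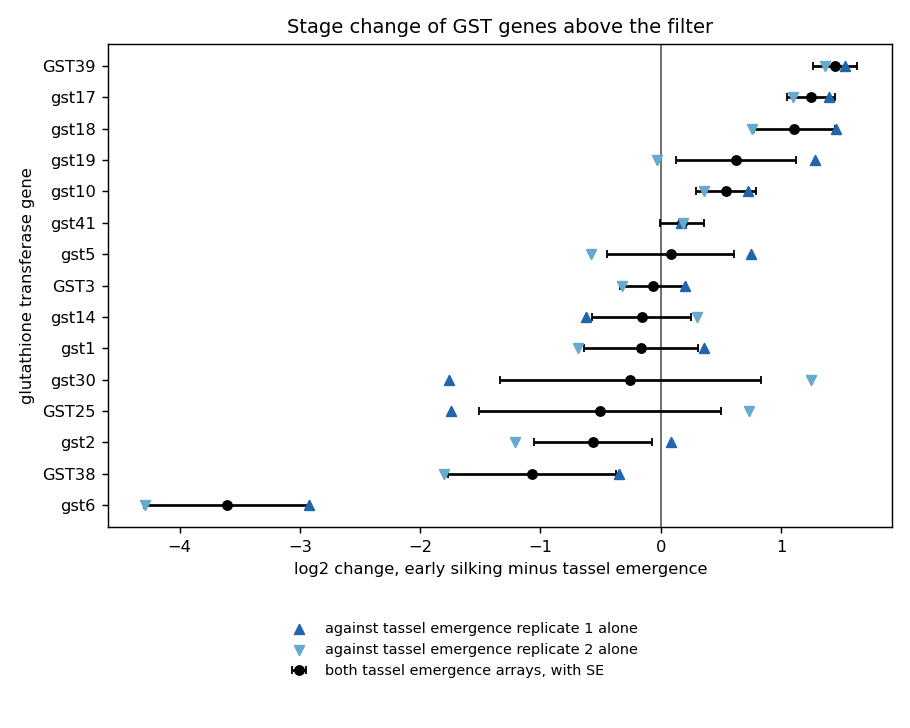
Log2 change of early silking minus tassel emergence (x axis) for the 15 glutathione transferase genes, as fitted with both tassel emergence arrays (black points, bars show the SE) and against each tassel emergence array alone (triangles). In 8 genes the triangles lie on opposite sides of 0, while those of GST39 and gst6 stay on one side.

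16 genes did not pass the filter. In 14 of them, on 18 probe sets, no array was above a log2 value of 4, and the values ran from 1.69 to 3.17. In 16 of these 18 probe sets the 4 arrays differed by less than 0.5. Among these low genes was gst23, a tau class gene linked in maize to resistance against several leaf diseases. gst13 and gst31 each had several probe sets, all of them low, so their probe sets did not disagree.

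The other two were above that value on tassel emergence replicate 1 alone. gst12 (LOC541830) had 1.99 and 2.01 at silking and 7.93 and 2.02 at tassel emergence. Replicate 1 of tassel emergence was thus 5.91 above the next array, while the other 3 arrays were at background. gst9 had 2.65 and 2.68 at silking and 4.09 and 2.57 at tassel emergence. An array that exceeded the other 3 by more than 4 was found in 42 of 17621 probe sets (0.238%), and in 37 of them it was this same array. No stage difference can be read from such a gene.

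**Figure D4:**
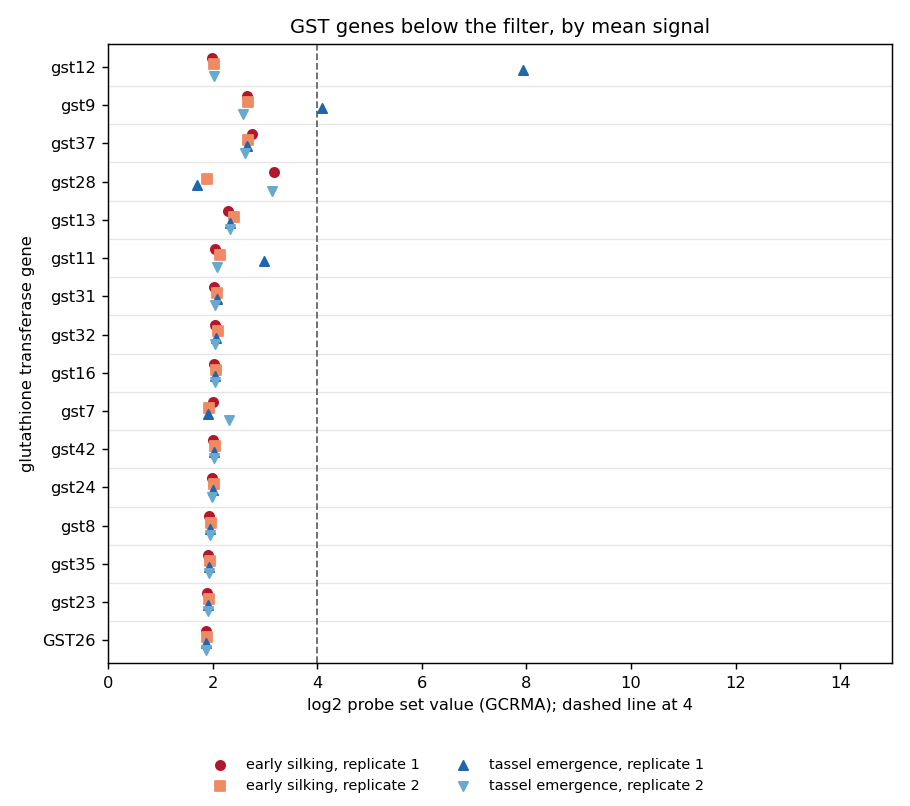
Log2 probe set values (x axis) of the 16 glutathione transferase genes that did not pass the filter, ordered by mean signal, with a point for each early silking and each tassel emergence array. Nearly all points lie between 1.69 and 3.17, and gst12 at 7.93 and gst9 at 4.09 are high on tassel emergence replicate 1 alone.

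Position in the genome was not used to choose the members. In the RefSeq order of protein-coding genes, 16 of the 31 genes lay in 5 groups with at most 10 other genes between one member and the next, and 15 stood alone. Of the grouped genes 5 passed the filter, and of the lone genes 10 did. The largest group held gst42, gst32, gst37, GST39, GST38 and gst30, with 3 other genes between gst32 and gst37 and none between the rest, and the last 3 of these 6 passed. The fitted log2 changes of these 3 adjacent genes were 1.45, -1.07 and -0.25, with SEs of 0.18, 0.70 and 1.08. None of the 3 passed the threshold, and the stages overlapped in GST38 and gst30. A second group held gst11, gst12, gst10 and gst31, and of these gst10 passed. In that group gst11 had 2.04 and 2.13 at silking and 2.97 and 2.08 at tassel emergence. Its highest array was the array that was high in gst12, but at 2.97 it was below the log2 value of 4. In gst10 the same array was the lowest of the 4, at 5.33. Near-identical copies can share probe signal, and probe sequences were not used here.

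The 4 measured genes of glutathione synthesis, recycling and use in the glyoxalase route were all above the filter, and none passed the threshold. Their log2 changes were above 0 in 4 of 4 (background 57.4%), with a median of 0.45 beside 0.10 over all tested probe sets, and the stages of 3 did not overlap (background 59.7%). In gsh1 and glx1 that separation was smaller than the spread between the tassel emergence arrays. The leaf markers were also above 0 in 9 of 9, with a median of 0.41, and the stages of 4 of the 9 did not overlap. Cab-m7, lhcb5, Lhcb5-2 and lhcb6 were below 0 against tassel emergence replicate 2 alone. The leaf marker me3 was above a log2 value of 4 on the silking arrays alone and passed the filter through them. Its direction and separation, counted in the 9 and the 4, were thus fixed by the filter. The part of the leaf markers in these values was not tested. gsh2, glutathione synthetase, had 8.75 and 9.02 at silking and 7.93 and 8.29 at tassel emergence, with both silking arrays above both others. Its log2 change of 0.77 (SE 0.24) did not pass (limma, adjusted p = 0.167). gsh1, which makes the precursor gamma-glutamylcysteine, had 9.33 and 9.37 at silking and 9.32 and 9.21 at tassel emergence, a change of 0.09. gor1, glutathione reductase, and glx1, glyoxalase I, which uses glutathione to remove methylglyoxal, had log2 changes of 0.31 and 0.59. These were 0.71 and 1.15 against tassel emergence replicate 1 alone and -0.09 and 0.04 against replicate 2 alone. The other tested probe sets of glx1 gave 0.72, where the stages overlapped, and 0.26. In gor1 and glx1, tassel emergence replicate 1 was the lowest array.

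In the list for peroxide and superoxide removal, which took in the thioredoxins trxh1 and trxh2, 9 of 14 genes passed the filter. Of these 5 were higher and 4 lower at silking (median 0.23), and none passed the threshold. The catalase gene CAT3 had 12.42 and 12.63 at silking and 11.67 and 11.995 at tassel emergence. Its log2 change was 0.69 (limma, adjusted p = 0.176) and the stages were separate. The superoxide dismutase gene Sod4A had the opposite order without overlap, with 11.52 and 11.61 at silking and 12.07 and 12.31 at tassel emergence. Taking 1 probe set per gene, the largest values either way were those of sod2, a superoxide dismutase, and PER42, a peroxidase, and each rested on 1 tassel emergence array. sod2 had 10.34 and 9.51 at silking and 8.04 and 9.86 at tassel emergence, a log2 change of 0.98 that was 1.89 against tassel emergence replicate 1 and 0.07 against replicate 2. PER42 had 7.71 and 7.32 at silking and 7.74 and 9.84 at tassel emergence, a log2 change of -1.28 that was -0.23 against replicate 1 and -2.33 against replicate 2. Probe sets of the catalase gene cat1 disagreed. The brighter one had a log2 change of -0.36, and a dimmer one, with 7.16 and 6.28 at silking and 3.30 and 5.598 at tassel emergence, had 2.28.

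Of 7 anthocyanin genes measured, 2 passed the filter, and the regulators c1 and pl1 were among those below it. These 2 were a2 and the transporter MRP4, which is also counted in the next list. a2, the enzyme that forms the anthocyanidin, had 8.41 and 9.72 at silking and 9.88 and 8.10 at tassel emergence, with no separation. A list matched by name types that take in detoxification genes (CYP, OPR, MRP, ABC and ZOG names) had 8 of 11 genes above the filter. Of these 5 were higher and 3 lower (median 0.03), and a role of each gene in detoxification was not tested. The MRP-type transporter MRP2 had 7.85 and 7.55 at silking and 6.97 and 7.09 at tassel emergence. Both silking values of MRP2 were higher, a log2 change of 0.67 (limma, adjusted p = 0.169). MRP4, a transporter of the same type known from the low phytic acid locus lpa1, had 9.28 and 10.08 at silking and 11.25 and 10.15 at tassel emergence. Its log2 change was -1.02 (SE 0.51; adjusted p = 0.299 by limma), and its stages were separate by less than the distance between replicates. The change was -1.57 against tassel emergence replicate 1 alone and -0.47 against replicate 2 alone. None of these genes passed the threshold, and the stem wall markers, with log2 summed signals of 14.98 and 14.85 at silking and of 15.94 and 16.26 at tassel emergence, moved with stage beside them. Their part in these values was not tested.

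**Figure D5:**
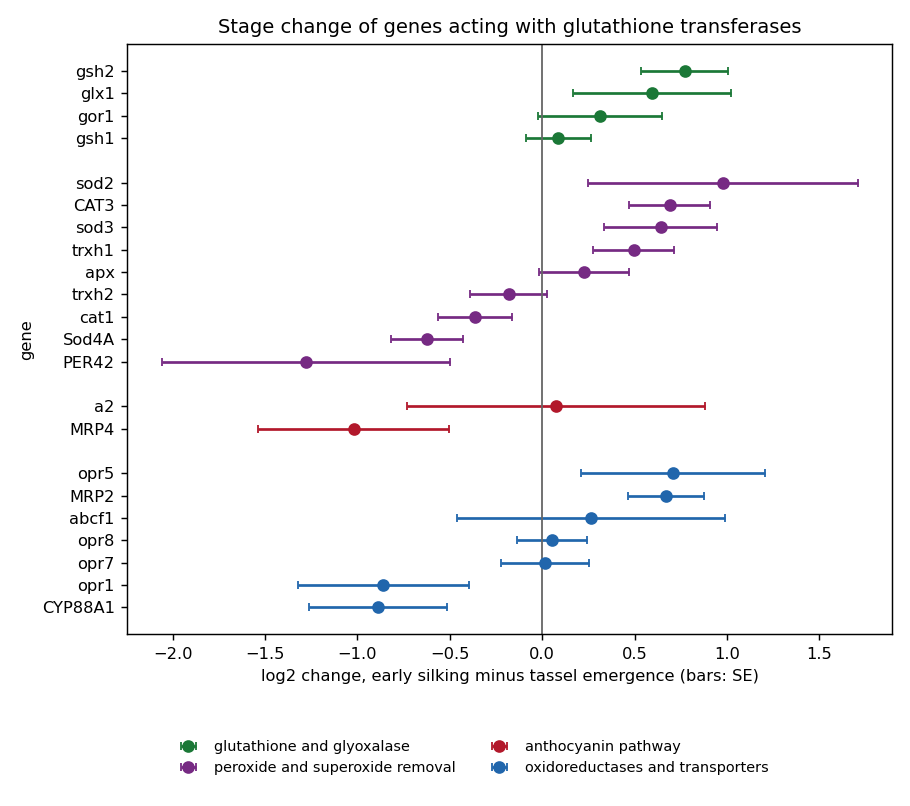
Log2 change of early silking minus tassel emergence (x axis, bars show the SE) for measured genes of glutathione and glyoxalase, peroxide and superoxide removal, the anthocyanin pathway, and oxidoreductases and transporters. The 4 glutathione and glyoxalase genes lie between 0.09 and 0.77, and the other groups hold changes of both signs.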

How the data were processed

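RNA of 4 samples was amplified, labelled with biotin and hybridised to Affymetrix maize arrays, per the labels. The deposited log2 values are probe set summaries made by the authors with GCRMA, per the submitters' processing notes, with no version given in the sources used here. GCRMA removes a background estimated from probe sequence, puts the arrays on a common distribution and pulls dim signals towards a floor. That the scale is log2 follows from the range of the values. Of 17734 probe sets, 113 controls were left out. The probe set with the highest mean stood for a gene.

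Early silking minus tassel emergence was fitted to the 10782 probe sets above a log2 value of 4 on at least 2 arrays by a moderated linear model (limma 3.58.1, R 4.3.3, functions lmFit and eBayes), 2-sided with 1.95 prior degrees of freedom, with Benjamini-Hochberg adjustment over all of them. The fit was run on simulated data with independent arrays, which checks the code and not how well the model suits these arrays. A permutation of single genes over 2 against 2 arrays cannot reach a p of 0.05. The small number of arrays limits precision. The control gap was averaged over cyclophilin, GAPDH, ubiquitin and EF1a, chosen after values were seen.

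Every member above the filter was named, as were listed genes with an unadjusted p under 0.05, the largest changes of a list, and lists of few genes. The members and lists were chosen with earlier results of these data known. As alternatives, a replicate block, other filters, normalizations, variance models and thresholds were run, and each array was left out in turn.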

Additional observations from a re-analysis of the deposited data

How the results depend on the processing

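No probe set and no member passed in the fit as reported, with the replicate block, other filters, quantile or centred values, an intensity trend, any array left out or the gap covariate. At an unadjusted p under 0.05 these fits had 1216 to 3368 probe sets and 3 to 9 members. With 1 common variance 1045 probe sets and 2 members (GST39 and gst6) passed, and at an adjusted p of 0.1 460 probe sets and 2 members (GST39 and gst17) did. Same-numbered arrays deviated in opposite directions (r = -0.42 across 10782 probe sets), and with the crossed pairing as a block, added after seeing the data, 357 probe sets and 1 member (gst6) passed. The replicate block kept 0 calls, and the labels do not say that the numbers pair the samples. Without a filter 18 members were higher at silking and 13 lower. These counts take in the 16 genes below the filter, 14 of them with no array above a log2 value of 4, where signal is close to background. The family's median change ranged from -0.14 to 0.20 with each array left out, with 7 to 10 members higher and 5 to 8 lower. Without tassel emergence replicate 1 it was 0.19, without tassel emergence replicate 2 it was 0.20, and without early silking replicate 2 it was 0.17. With the gap as a covariate, added after seeing the data, the median was 0.15 and the changes of 5 members reversed, to -1.10 for gst5, -0.47 for gst19, 0.47 for gst14, 2.22 for gst30 and 1.81 for GST25. With each array left out, the change ranged from -0.68 to 0.36 for gst1, -0.58 to 0.75 for gst5, -0.33 to 0.20 for GST3, -0.031 to 1.28 for gst19, -1.21 to 0.084 for gst2, -0.62 to 0.30 for gst14, -1.76 to 1.25 for gst30 and -1.74 to 0.73 for GST25. The cause of these reversals was not tested. The other 7 members kept their sign in every fit that tested them, but not their size. With each array left out, GST38 ran from -1.80 to -0.34, gst18 from 0.76 to 1.46, gst10 from 0.36 to 0.73, gst41 from 0.082 to 0.27, gst6 from -4.29 to -2.93, gst17 from 1.10 to 1.40 and GST39 from 1.37 to 1.53. With the gap covariate the changes were -2.54 for GST38, 0.44 for gst18, 0.16 for gst10, 0.15 for gst41, -5.01 for gst6, 0.998 for gst17 and 1.32 for GST39.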
